A study of Mus musculus with 6 samples.

Results

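The aryl hydrocarbon receptor (AhR) pathway was described through 10 genes, out of 28418 in the deposited tables: the receptor gene Ahr, its partner Arnt, the feedback genes Ahrr and Tiparp, the oxidising enzymes Cyp1a1, Cyp1b1 and Aldh3a1, the electron donor Por, the conjugating enzyme Sult1a1 and the haem synthesis gene Alas1. They were chosen by name, and each was found once by its GENCODE M21 symbol. Their transcripts were measured by poly(A) RNA sequencing in 4T1 cells, a mouse mammary carcinoma line that serves as a triple-negative breast cancer model. The 3 libraries labelled 0 nM and the 3 labelled 100 nM come from cells kept for 35 passages without or with perfluorooctane sulfonate (PFOS), a persistent fluorinated surfactant. No genetic change is named for either group. The labels do not say whether replicates were grown as separate cultures. The p-values therefore reflect the spread among these libraries alone, and that spread may be technical.

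The AhR is a ligand-activated transcription factor that waits in the cytosol in a complex with heat shock protein 90. Once it binds a planar aromatic ligand such as a dioxin, it moves to the nucleus, pairs with ARNT and binds DNA at a short core sequence near its target genes, of which Cyp1a1 is the textbook example. Its targets include the genes of its own inhibitors, the AhR repressor and the ADP-ribosyltransferase TIPARP, so that Ahrr, Tiparp and the Cyp1 genes serve as readouts of an active receptor. Cytochrome P450 enzymes need haem, whose synthesis begins with ALAS1, and electrons, which POR passes to them from NADPH.

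Values were FPKM, which scale fragments to transcript length and to each library's mapped total. They sum to between 306716 and 309381 in the 6 libraries and give no depth. The epithelial keratin gene Krt8 (288.7 to 310.04 FPKM) was high in every library, and the oestrogen receptor gene Esr1 reached at most 0.45 FPKM. Erbb2, a receptor gene of the same list, was at 13.24 to 13.95 FPKM. The progesterone receptor gene Pgr had no values matched by symbol. Of 6 tested epithelial and 4T1 identity genes, 2 rose at 100 nM, beside 1.69% of all tested genes. Cdh1, the E-cadherin gene, rose from 54.1 to 66.2 FPKM (limma adjusted p = 0.00323). The keratin gene Krt19 rose from 37.9 to 45.1 FPKM (limma adjusted p = 0.0187), a call lost on leaving out 5 of the 6 libraries in turn. Epcam was at 25.1 to 26.04 FPKM at 0 nM and at 29.0 to 35.09 FPKM at 100 nM, without a call (limma adjusted p = 0.0606). Values were likewise higher in every 100 nM library for 13.7% of all tested genes. Replicate 3 at 100 nM stood apart from the other 5 libraries on the first principal component. All 10 T and NK cell markers examined were highest there. Their summed level was 25.5 FPKM in that library, 0.16 and 0.20 FPKM in replicates 1 and 2 at 100 nM, and 0.21 to 0.25 FPKM at 0 nM, where 6 of the 10 were at 0 in every library. The highest value was that of Gzmb, at 14.94 FPKM. Macrophage and granulocyte markers summed to 149 to 193 FPKM at 0 nM and to 145, 285 and 301 FPKM in replicates 1, 2 and 3 at 100 nM, with Lyz2 highest at 240.43 FPKM. None of these 8 markers was at 0 in all libraries of a group. Fibroblast and endothelial markers summed to 4.86 to 5.15 FPKM at 0 nM and to 5.04, 5.47 and 8.65 FPKM at 100 nM, with Pdgfra highest at 3.81 FPKM, and the B cell markers reached at most 0.13 FPKM, for Cd79a, with Ms4a1 at 0 throughout. Hepatocyte markers, a list chosen after values were seen, set replicates 1 and 2 at 0 nM apart: all 10 were higher there than in any other library, with sums of 15.92 and 14.59 FPKM and Alb, the serum albumin gene, highest at 7.17 FPKM. Their sum was 0.01 FPKM in replicate 3 at 0 nM and 0, 0.06 and 0.18 FPKM in replicates 1, 2 and 3 at 100 nM, and 8 of the 10 were at 0 in every 100 nM library. The source of these marker transcripts and their bearing on the values below were not tested. Results are also given without replicate 3 at 100 nM where it matters. In bulk RNA, fewer cells that express a gene and less RNA per cell cannot be told apart.

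None of the genes abundant enough to test passed the threshold between 0 nM and 100 nM PFOS. The receptor and its partner were both expressed, yet Cyp1a1 and Ahrr were barely detected in either group, while Tiparp was abundant in both. Of the 10, 6 had a mean of at least 1 FPKM and were tested (limma, two-sided, on the log2(FPKM + 1) difference of 100 nM from 0 nM, with Benjamini-Hochberg adjustment over 11741 genes). The number of calls among the 6 at an adjusted p under 0.05 was 0, beside 4.15% of all tested genes (1.69% higher and 2.46% lower), and the smallest adjusted p was 0.219. At an unadjusted p under 0.05 there were 2, Arnt and Por, beside 20.7% of all tested genes. In 2 of the 6, Arnt and Aldh3a1, the 0 nM and 100 nM values did not overlap, beside 26.9% of all tested genes. The median difference of the 6 was 0.02 on the log2(FPKM + 1) scale, and that of all tested genes 0.01. A missed threshold does not show equal levels, so the 95% intervals are given with each gene. Taken over the 6, these reached from -0.31 to 0.23. The call for each of the 6 was absent under every alternative setting in which it was tested (16 for Ahr and Aldh3a1 and 17 for the other 4), including without replicate 3 at 100 nM.

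**Figure D1:**
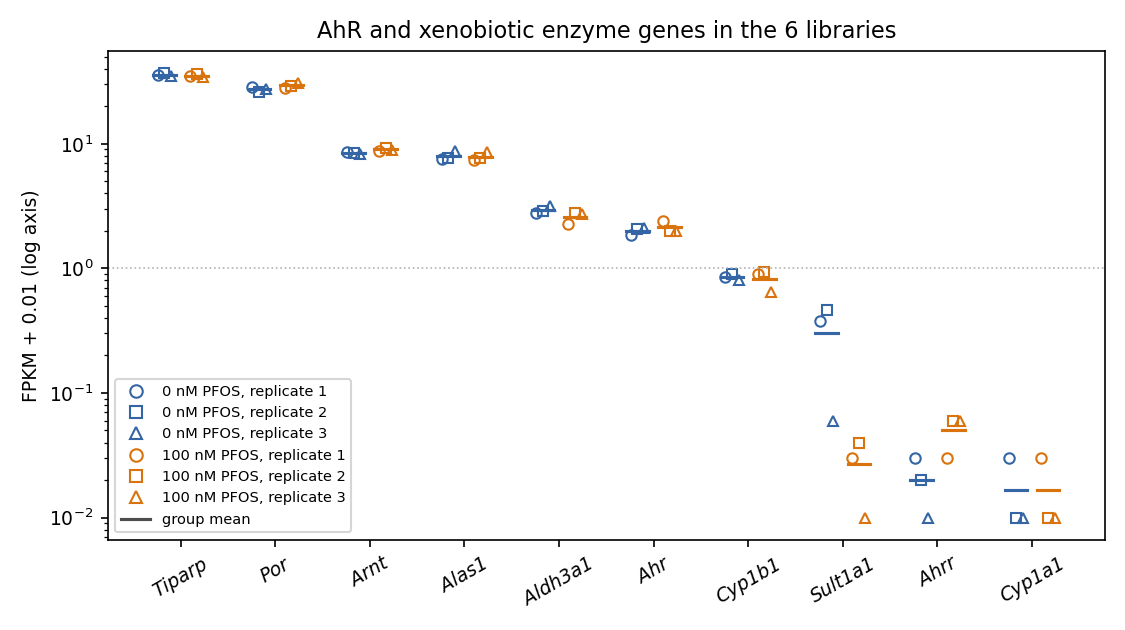
FPKM of the 10 genes in the 6 libraries, on a log axis after adding 0.01, in order of mean level. Blue marks 0 nM and orange 100 nM PFOS, symbols mark replicates 1 to 3, bars mark group means and the dotted line marks the 1 FPKM minimum for testing. Tiparp and Por lie at or above 26.01 FPKM in every library, while Ahrr and Cyp1a1 lie at or under 0.05 FPKM in both groups.

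The levels spanned a wide range, and their order is read per length of transcript. By mean over the 6 libraries, Tiparp was highest (35.5 FPKM), followed by Por (28.3), Arnt (8.73), Alas1 (7.92), Aldh3a1 (2.77), Ahr (2.06), Cyp1b1 (0.83), Sult1a1 (0.153), Ahrr (0.025) and Cyp1a1 (0.00667). The values of neighbours in this order overlapped for Arnt and Alas1, for Aldh3a1 and Ahr, for Sult1a1 and Ahrr and for Ahrr and Cyp1a1, so the order within these pairs does not exceed the spread between libraries. Values of the other neighbours did not overlap. Among 16367 protein-coding genes above 0 in at least 1 library, Tiparp stood at percentile 92.9, Por at 90.7, Ahr at 44.0 and Cyp1a1 at 5.89.

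Tiparp, Cyp1a1, Cyp1b1 and Ahrr are textbook AhR targets that differ widely in level, and their promoter stretches are shown to set the receptor's core sequence beside them. The stretches come from RefSeq windows on GRCm38.p6 that hold the bases before the start of transcription, cut back where a protein-coding exon begins. They are written 5′ to 3′ on the gene's strand, and capitals mark GCGTG or its reverse complement, the core bound by AhR and ARNT.
Tiparp, chr3:65528197-65528409, plus strand: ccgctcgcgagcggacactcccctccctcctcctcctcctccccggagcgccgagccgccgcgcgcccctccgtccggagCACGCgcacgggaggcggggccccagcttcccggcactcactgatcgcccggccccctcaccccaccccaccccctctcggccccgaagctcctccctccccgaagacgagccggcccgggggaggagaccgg
Cyp1a1, chr9:57697363-57697612, plus strand: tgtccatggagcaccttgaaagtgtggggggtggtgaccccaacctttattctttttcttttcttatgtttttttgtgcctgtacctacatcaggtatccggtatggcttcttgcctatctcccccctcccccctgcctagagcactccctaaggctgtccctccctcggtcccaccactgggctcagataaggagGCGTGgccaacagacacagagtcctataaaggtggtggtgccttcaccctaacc
Cyp1b1, chr17:79715062-79715311, minus strand: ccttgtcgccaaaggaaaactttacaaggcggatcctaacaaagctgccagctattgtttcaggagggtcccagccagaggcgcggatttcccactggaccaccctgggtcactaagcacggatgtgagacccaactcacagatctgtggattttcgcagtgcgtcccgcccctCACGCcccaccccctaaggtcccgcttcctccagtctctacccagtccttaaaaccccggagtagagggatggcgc
Ahrr, chr13:74292332-74292581, minus strand: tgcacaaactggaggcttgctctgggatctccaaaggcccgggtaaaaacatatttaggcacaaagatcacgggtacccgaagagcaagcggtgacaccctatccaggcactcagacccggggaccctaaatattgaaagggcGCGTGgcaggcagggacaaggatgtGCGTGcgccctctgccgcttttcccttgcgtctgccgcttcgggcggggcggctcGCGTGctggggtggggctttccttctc

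Each of the 4 held the core. Sequence farther upstream was not examined. Counting back from the RefSeq start, the first base of the core lay at -170 in Tiparp, at -54 in Cyp1a1, at -76 in Cyp1b1 and at -107, -82 and -27 in Ahrr. The Cyp1a1 stretch lies inside the annotated gene, in no exon and upstream of the RefSeq start. Among all 10 genes, 8 had a window, and 7 of these held the core in the 250 bases before the start, Sult1a1 being the exception. Por held 3 cores and Arnt 1, and Alas1 had a pair of windows, of which 1 held a core. Over all 32851 windows in the table, 28.2% held at least 1 core on either strand and 2.77% held 3 or more. The longer form TNGCGTG (N for any base, either strand), which contains the core, was in 4.1% of windows and among these genes only in that of Ahrr. The windows of these genes ranged from 45.6% to 75.2% GC, beside a median of 52.4% over all windows, so the shares are a description of letters and not of binding sites.

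Ahr encodes the ligand-binding receptor itself (ENSMUSG00000019256, chromosome 12, 35497974 to 35535038, minus strand). It was at 1.83, 2.05 and 2.09 FPKM at 0 nM and at 2.38, 1.99 and 2.00 FPKM at 100 nM. The groups overlapped, and replicate 1 gave both the lowest value at 0 nM and the highest at 100 nM. Means were 1.99 ± 0.14 and 2.12 ± 0.222 FPKM (SD, n = 3 each), and their log2(FPKM + 1) difference was 0.06 ± 0.07 (SE; 95% interval -0.11 to 0.23; limma adjusted p = 0.682). Without replicate 1 at 100 nM the difference was 0.0035. Of 10231 other protein-coding genes tested, the 3 whose log2(FPKM + 1) values, centred over the 6 libraries, lay closest to those of Ahr were Ddx31 (distance 0.0543), Kantr (0.0559) and Fntb (0.063).

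Arnt encodes the partner that AhR shares with the hypoxia-inducible factors (ENSMUSG00000015522, chromosome 3, 95434388 to 95497237, plus strand). It stood at 8.56, 8.48 and 8.29 FPKM at 0 nM and at 8.74, 9.31 and 8.98 FPKM at 100 nM. Every 100 nM value was above every 0 nM value, as was so for 13.7% of all tested genes. Means were 8.44 ± 0.139 and 9.01 ± 0.286 FPKM (SD, n = 3 each), and the difference of 0.08 ± 0.03 (SE; 95% interval 0.0046 to 0.16) did not pass (limma adjusted p = 0.219). Arnt lies among genes with mostly higher means: within 2.5 Mb of its start, 50 of 65 tested protein-coding genes were higher by mean at 100 nM (median difference 0.05), beside 52.4% of all tested protein-coding genes, and 4 of them rose, beside 1.69% of all tested genes (Cers2, Bola1, Selenbp1 and Scnm1, named after their values were seen). The mean of Ahr was 23.6% of that of Arnt in both groups.

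The feedback genes lay at opposite ends of the range. Ahrr, the gene of the AhR repressor, which competes for ARNT (ENSMUSG00000021575, chromosome 13, 74211118 to 74292331, minus strand), had 0.02, 0.01 and 0 FPKM at 0 nM and 0.02, 0.05 and 0.05 FPKM at 100 nM. These values are a few units of the last printed decimal, and no fold is given. Tiparp, which encodes an ADP-ribosyltransferase that represses AhR (ENSMUSG00000034640, chromosome 3, 65528410 to 65555518, plus strand), had 35.79, 36.99 and 34.74 FPKM at 0 nM and 35.10, 36.20 and 34.11 FPKM at 100 nM. The groups overlapped, with 2 of the 3 values at 100 nM inside the 0 nM range, at 35.8 ± 1.13 and 35.1 ± 1.05 FPKM (SD, n = 3 each). Their difference of -0.03 ± 0.03 (SE; 95% interval -0.11 to 0.05; limma adjusted p = 0.692) did not pass. Of the 11 tested protein-coding genes within 2.5 Mb of it, 10 were higher by mean at 100 nM (median difference 0.08; 52.4% over all tested protein-coding genes), and 0 were called. The annotated gene 4931440P22Rik overlaps Tiparp on the other strand. Annotated genes likewise overlap Ahr, Por, Alas1 and Sult1a1 on the other strand, and Gm42672 overlaps Arnt on the same strand. Whether strand was used in quantification is not given in the sources used here.

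Cyp1a1, the P450 most strongly induced by AhR ligands in many tissues (ENSMUSG00000032315, chromosome 9, 57687928 to 57703824, plus strand), was listed at 0 in 2 of the 3 libraries of each group and at 0.02 FPKM in replicate 1 of each. Cyp1b1, an oestrogen- and hydrocarbon-oxidising P450 made outside the liver (ENSMUSG00000024087, chromosome 17, 79701537 to 79715061, minus strand), had 0.85, 0.89 and 0.80 FPKM at 0 nM and 0.89, 0.92 and 0.63 FPKM at 100 nM. The groups overlapped. Its lowest value was in replicate 3 at 100 nM, the library where the T and NK cell markers were highest. The means were 0.847 FPKM at 0 nM and 0.813 FPKM at 100 nM, and without that library the 100 nM mean was 0.905 FPKM, so the direction turned. It lay under the 1 FPKM minimum, and with a minimum of 0.1 FPKM its difference was -0.03 (limma adjusted p = 0.891). Within 2.5 Mb of Cyp1a1, 25 of 42 tested neighbours had a higher mean and 1 fell, Imp3, named after its value was seen, beside 2.46% of all tested genes.

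Aldh3a1, an aldehyde dehydrogenase under AhR control (ENSMUSG00000019102, chromosome 11, 61207537 to 61218421, plus strand), had 2.79, 2.88 and 3.17 FPKM at 0 nM and 2.27, 2.78 and 2.71 FPKM at 100 nM. The groups did not overlap, by 0.01 FPKM, and 13.3% of all tested genes were likewise lower in every 100 nM library. Means were 2.95 ± 0.199 and 2.59 ± 0.276 FPKM (SD, n = 3 each), with a difference of -0.14 ± 0.07 (SE; 95% interval -0.31 to 0.03; limma adjusted p = 0.335). This was the largest difference in size among the 6 tested genes, where genes called changed had a median of 0.23 in size. Without replicate 1 at 100 nM it was -0.07.

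Por, the NADPH-P450 reductase gene (ENSMUSG00000005514, chromosome 5, 135670033 to 135735326, plus strand), had 28.43, 26.01 and 27.37 FPKM at 0 nM and 28.22, 29.21 and 30.66 FPKM at 100 nM. The groups overlapped through replicate 1 of each, and the highest value was in replicate 3 at 100 nM. Means were 27.3 ± 1.21 and 29.4 ± 1.23 FPKM (SD, n = 3 each), and the difference of 0.10 ± 0.04 (SE; 95% interval 7.06e-05 to 0.21) did not pass (limma adjusted p = 0.241). Without replicate 3 at 100 nM it was 0.07. Of 68 tested neighbours within 2.5 Mb, 49 were higher by mean at 100 nM (median difference 0.04; 52.4% over all tested protein-coding genes), and 3 rose, beside 1.69% of all tested genes.

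Sult1a1, a phenol sulfotransferase gene (ENSMUSG00000030711, chromosome 7, 126672865 to 126676432, minus strand), had 0.37, 0.45 and 0.05 FPKM at 0 nM and 0.02, 0.03 and 0 FPKM at 100 nM. The 100 nM values were all below the 0 nM values, but replicate 3 at 0 nM lay nearer to the 100 nM libraries than to its own group. The high values were in the same pair of libraries as the hepatocyte markers, which summed to 15.92 and 14.59 FPKM there and to at most 0.18 FPKM in any other library. Some other enzyme genes, named after their values were seen, were above 0 in those libraries and at 0 in the other 4. These were 10 of 55 P450 genes, 4 of 16 glucuronosyltransferase genes and 1 of 25 glutathione S-transferase genes. In the sulfotransferase list, which holds Sult1a1, 0 of 11 genes had this pattern. The genes with the pattern were picked by it. Its share over all genes was not counted, so the counts are a description only. Genes with the pattern included Cyp2a4 (1.13 and 1.21 FPKM), Cyp2a5 (0.61 and 0.48 FPKM) and Gstm3 (0.30 and 0.32 FPKM). A link between the hepatocyte markers and the Sult1a1 values was not tested. With a minimum of 0.1 FPKM in place of 1, the difference was -0.33 on the log2(FPKM + 1) scale and did not pass (limma adjusted p = 0.269). Of its 31-base words, 11.4% occur in transcripts of other genes, and Sgf29 overlaps it on the other strand, so these low values are uncertain.

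Alas1, which encodes the first and rate-limiting enzyme of haem synthesis outside the red cell lineage (ENSMUSG00000032786, chromosome 9, 106233455 to 106248654, minus strand), had 7.52, 7.70 and 8.66 FPKM at 0 nM and 7.38, 7.71 and 8.53 FPKM at 100 nM. The sets of values were nearly the same, with replicate 3 highest in each. Means were 7.96 ± 0.613 and 7.87 ± 0.592 FPKM (SD, n = 3 each), a difference of -0.01 ± 0.07 (SE; 95% interval -0.17 to 0.15; limma adjusted p = 0.933). Its neighbours were mostly higher at 100 nM: 57 of 65 within 2.5 Mb were higher by mean, beside 52.4% of all tested protein-coding genes. Their median difference was 0.06, and 4 rose, beside 1.69% of all tested genes. This did not hold near every member. Tested neighbours higher by mean were 33 of 81 for Sult1a1, 7 of 20 for Cyp1b1 and 30 of 61 for Aldh3a1. They were 13 of 23 for Ahrr and 4 of 6 for Ahr.

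**Figure D2:**
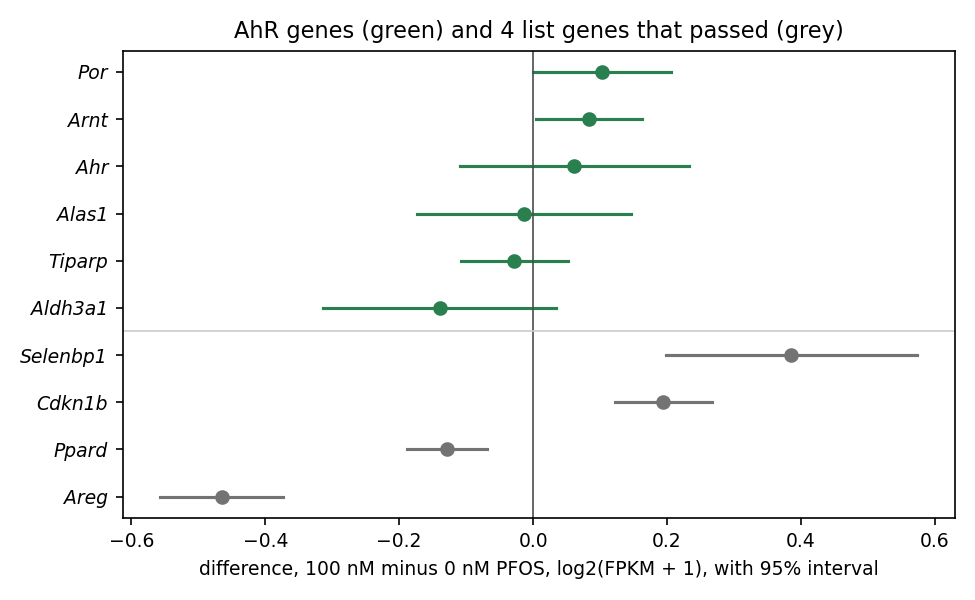
Difference between 100 nM and 0 nM PFOS on the log2(FPKM + 1) scale with 95% limma intervals, for the 6 tested genes (green) and for 4 genes of the pathway lists that passed the test (grey). The green points lie between -0.14 and 0.10, and Areg lies at -0.47.

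Beyond the 10 genes, lists of the pathway were read for how many members passed the same test, beside 4.15% of all tested genes. Counts called unadjusted are of members at a limma unadjusted p under 0.05, beside 20.7% of all tested genes. Among 15 tested AhR target genes, 2 rose and 1 fell, with a median difference of 0.0049. None of the 3 encodes a P450. Areg, the gene of the growth factor amphiregulin, which activates the epidermal growth factor receptor, had 16.61, 17.43 and 17.55 FPKM at 0 nM and 12.72, 11.73 and 12.10 FPKM at 100 nM. The groups lay well apart, and Areg fell by 0.47 ± 0.04 (SE, log2(FPKM + 1) scale; limma adjusted p = 0.00323).

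Cdkn1b, the gene of the cell cycle inhibitor p27, rose without overlap, from 19.2 ± 0.439 to 22.1 ± 0.582 FPKM (SD, n = 3 per group; adjusted p = 0.024 by limma). Selenbp1, a selenium-binding protein gene, rose from 3.87 ± 0.52 to 5.33 ± 0.0115 FPKM (SD, n = 3 per group; adjusted p = 0.0496 by limma). However, 61.1% of its words occur in transcripts of other genes, so its value is uncertain. It is itself 1 of the 65 genes counted around Arnt, whose median difference was 0.05, beside 0.39 for Selenbp1. Whether its position bears on its value was not tested. The call was lost in 2 of 17 alternatives for Areg, 8 of 17 for Cdkn1b and 12 of 16 for Selenbp1. Without replicate 3 at 100 nM, Selenbp1 was among the lost calls (limma adjusted p = 0.109), while Areg (0.0131) and Cdkn1b (0.0418) still passed. Nqo1, a quinone reductase gene of the same list named after its value was seen, was at 8.52 and 8.91 FPKM (limma adjusted p = 0.518).

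**Figure D3:**
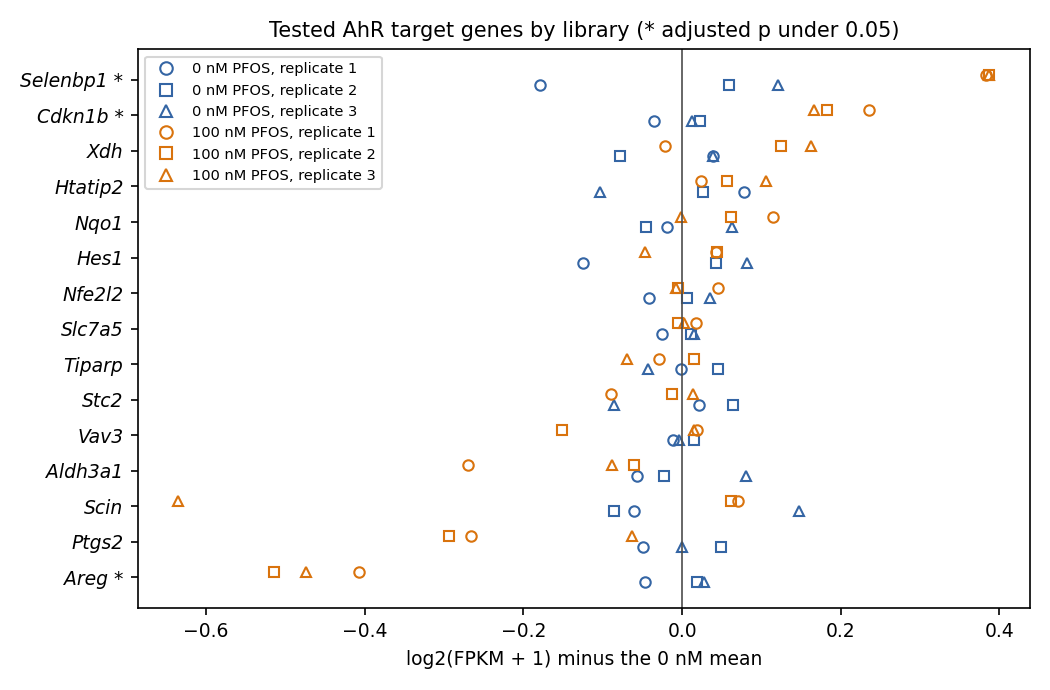
Values of the 15 tested AhR target genes in each library, as log2(FPKM + 1) minus the mean of the 0 nM libraries, with blue for 0 nM and orange for 100 nM PFOS and symbols for replicates 1 to 3. Asterisks mark the 3 genes that passed, and 2 of the 3 values of Tiparp at 100 nM fall within its 0 nM range.

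Of the receptor's complex and cofactors, 0 of 12 tested members passed, with a median difference of 0.01. At a limma unadjusted p under 0.05 there were 4, beside 20.7% of all tested genes. The heat shock protein 90 genes were the most abundant, Hsp90ab1 at 1416 and 1460.2 FPKM and Hsp90aa1 at 435 and 439 FPKM. Hsp90aa1 shares 51.5% of its words with other transcripts. Of other factors of the receptor's structural family, 0 of 4 tested passed (0 unadjusted), among them the hypoxia factor gene Hif1a at 43.0 and 42.3 FPKM and the circadian gene Clock at 3.66 and 3.60 FPKM. Among other xenobiotic receptors 1 of 5 tested fell, Ppard, a fatty acid-sensing nuclear receptor gene, from 12.7 ± 0.0681 to 11.5 ± 0.154 FPKM (SD, n = 3 per group; adjusted p = 0.0441 by limma), a call lost in 11 of 17 alternatives, including without replicate 3 at 100 nM (limma adjusted p = 0.0874). The genes of the receptors PXR (Nr1i2) and CAR (Nr1i3) reached at most 0.13 and 0.06 FPKM.

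A list of electron transfer genes, Por-dependent enzyme genes and related genes, Por included, had 0 of 14 members past the test. Its unadjusted count was 5, beside 20.7% of all tested genes, and its median difference was 0.04. Cyb5b was at 69.0 and 68.2 FPKM and the reductase gene Cyb5r3 at 49.95 and 46.2 FPKM (limma adjusted p = 0.0604). Most of the 55 P450 genes matched by symbol were low: 48 had a mean under 1 FPKM. Of the 55, 0 were at 0 in every library, and 26956 of all 28418 deposited genes were likewise above 0 somewhere. P450 genes without a matched row were not counted. Of the 7 tested, 0 passed (3 unadjusted, median 0.08). The highest were Cyp51, the lanosterol demethylase gene of sterol synthesis, at 15.6 ± 0.2 and 17.8 ± 0.902 FPKM (SD, n = 3 per group; adjusted p = 0.0585 by limma), and Cyp20a1 at 11.99 and 12.3 FPKM. Of haem synthesis and breakdown genes, 0 of 18 tested passed (1 unadjusted; median 0.02). Tspo, a mitochondrial outer membrane protein gene, was at 82.3 and 83.7 FPKM.

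Hmox1, the haem oxygenase gene, had 36.57, 34.16 and 37.25 FPKM at 0 nM and 30.59, 34.14 and 54.45 FPKM at 100 nM (limma adjusted p = 0.833). Its high value was in replicate 3 at 100 nM, where the T and NK cell markers summed to 25.5 FPKM. The macrophage and granulocyte markers summed to 301 FPKM there and to 145 and 285 FPKM in replicates 1 and 2 at 100 nM. In those replicates Hmox1 lay below its 0 nM range. A link between these markers and Hmox1 was not tested.

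Conjugating and other detoxifying families likewise gave no calls, and their unadjusted counts stand beside 20.7% of all tested genes. Of aldehyde dehydrogenases 0 of 11 tested passed (2 unadjusted; median -0.01), with Aldh2 at 40.5 and 40.1 FPKM and Aldh18a1 at 36.3 and 35.1 FPKM. Of glutathione S-transferases 0 of 13 passed (3 unadjusted; median 0.04), with Gstp1 at 76.2 and 72.2 FPKM, sharing 38.5% of its words with other transcripts, and Gsto1 at 51.3 and 55.2 FPKM (limma adjusted p = 0.0632). Of other xenobiotic enzymes 0 of 8 passed (1 unadjusted; median -0.03), with the aldo-keto reductase gene Akr1b8 at 28.5 and 27.9 FPKM. In the sulfotransferase list only Papss1, which makes the sulfate donor, was tested (0 passed, 0 unadjusted), at 44.99 and 46.4 FPKM, and Sult2b1 followed at 0.877 and 0.687 FPKM. None of 16 glucuronosyltransferase genes reached a mean of 1 FPKM, the highest being Ugt1a7c at 0.89 and 0.903 FPKM and Ugt2b5 at 0.16 and 0.0233 FPKM. Transcripts of other genes hold 55.7% and 56.4% of their words.

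**Figure D4:**
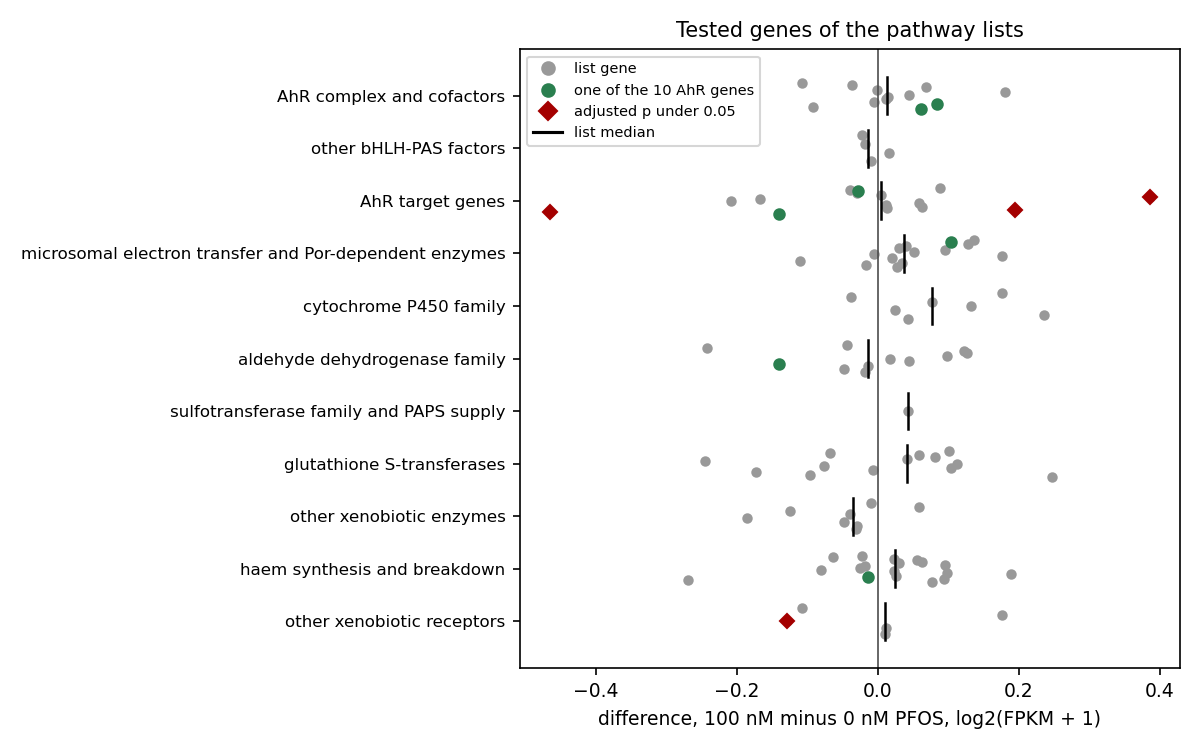
Difference between 100 nM and 0 nM PFOS on the log2(FPKM + 1) scale for each tested gene of 11 pathway lists, with list medians as black bars. Green marks genes among the 10, red diamonds mark the 4 genes that passed, and the medians lie between -0.03 and 0.08.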

How the data were processed

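Poly(A) RNA of 4T1 cells was sequenced in 6 libraries. The deposited values are FPKM per gene to 2 decimals, per the file headers. The submitters' processing notes name fastp, HISAT2 and StringTie and the builds GRCh38 and mm10. Tool versions and the role of GRCh38 are not given in the sources used. The identifiers are mouse: 28350 of 28418 are in GENCODE M21 (GRCm38), which gave symbols, and 24717 have the same coordinates there. Coordinates are as deposited. Listed genes with no row matched by symbol were not analysed here.

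Low values of genes with 1 transcript were searched for the size of 1 read. At the best depth 22.9% to 24.4% lay within 0.1 of a whole multiple, where even spread gives 20%, so reads were not recovered and depth is unknown.

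The test was limma-trend (limma 3.58.1, R 4.3.3) on log2(FPKM + 1) for genes averaging 1 FPKM or more across the libraries. This scale understates the change of low genes. The test was checked on simulated data with normal noise. Of 50 genes changed 1.2-fold on the FPKM + 1 scale, 62% were called, and of 50 changed 4-fold, 100%. Of 184 calls there, 14 were false. Smaller changes were not simulated. The members and lists were chosen with earlier results of these data known. Named genes are all members, up to 4 called genes per list or the 2 highest where none was called, and the 3 closest to Ahr; 1 gene so chosen is not reported here. Shared words are 31-base words of a gene's transcripts found in other genes. Python 3.11.15, pandas 2.3.3, scipy 1.17.1 and matplotlib 3.10.9 were used otherwise. Alternatives covered pseudocounts, filters, scaling, moderation, a replicate block and leaving out libraries.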

Additional observations from a re-analysis of the deposited data

How the results depend on the processing

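No member was called under any of the 17 alternatives, in which 4 to 10 of the 10 genes were tested. The background count of 487 changed genes depended on the setting. It was 204 with no filter on low values, 314 with a mean of at least 0.1 FPKM, 294 without the variance trend, 593 with a mean of at least 5 FPKM, 506 with median scaling and 74 without replicate 3 of both groups. Leaving out 1 library gave 122 to 289: 139, 122 and 143 without replicates 1, 2 and 3 at 0 nM, and 182, 143 and 289 without replicates 1, 2 and 3 at 100 nM. The causes were not tested, beyond fewer samples or more genes tested. With the replicate number as a block, 58 genes were called. Deviations of same-numbered libraries correlated at -0.03, -0.05 and 0.01, and replicate 1 at 0 nM correlated best with replicate 2 at 100 nM (0.07). By this measure same-numbered libraries were no more alike than others. With so few libraries per group, it does not show whether they were paired. The difference of Alas1 ran from -0.066 to 0.041 when 1 library was left out and was above 0 without replicate 3 at 0 nM or without replicate 1 at 100 nM (0.026). The other 5 tested members kept their sign wherever tested. For Areg the adjusted p ran from 0.0019 to 0.0542, for Cdkn1b from 0.0162 to 0.112, for Selenbp1 from 0.0461 to 0.137 and for Ppard from 0.0323 to 0.183. FPKM carries no depth, so values under 1 FPKM have no counting error beside them.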
